A study of Mus musculus with 16 samples.

Results

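Reactive astrocyte genes are those that astrocytes raise after injury, infection or inflammation. The members described here are Gfap, Vim, Lcn2, Serpina3n, Cp, Cd109, Ptx3, Steap4, S1pr3 and Timp1. A probe was counted as a member when the RefSeq accession it carries belongs to one of these genes, which gave 13 of 55681 probes and 10 of 21368 named genes. Gfap had 3 probes and Cp had 2, and each other member had 1. Where a gene had several probes, its brightest probe stood for it.

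Primary cultures of cerebral cortex from C57BL/6 mice were exposed to Klotho or to phosphate-buffered saline, and their RNA was hybridised to 1-colour Agilent arrays. Klotho is an anti-ageing protein that is shed from the cell surface and circulates. The design asks how gene expression in each cell type differs with the protein. The groups were astrocytes given 1 nM recombinant secreted Klotho for 24 h, astrocytes given the saline vehicle for 24 h, neurons given the same dose of Klotho for 24 h at 14 days in vitro, and neurons given the vehicle, with 4 arrays in each. The growth protocol takes astrocytes from newborn pups of postnatal day 0 to 5, stripped of meninges, grown in medium with serum and shaken for 15 h to a stated purity above 98%, while the sample labels give embryonic day 16 for both cell types. Neurons came from embryos of day 16 and were kept in a medium without added serum. The strain is the same in all groups, no group carries a genetic change, and the labels do not tell whether the 4 arrays per group are separate cultures or how many animals were pooled. P-values here therefore reflect the variation among these arrays alone, part of which may be technical.

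Astrocytes build their intermediate filaments from Gfap and Vim, and both increase when astrocytes react. The other members are secreted or membrane proteins with roles in innate defence, metal handling and matrix turnover. Cytokines that act through STAT3 or NF-kappaB are known inducers of many of them, and serum in the culture medium keeps astrocytes in a partly reactive state. Such genes are often split into a shared set, an A1 set described after endotoxin and an A2 set described after ischaemia.

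Levels below are log2 processed signal minus the array's own 75th percentile, so a level of 0 is that percentile and a difference of 1 is a doubling. Levels of different genes come from different probes and were not set against each other. Spots well above background made up 57.5% to 67.3% of non-control spots on the 16 arrays, which limits precision for dim probes. In neurons the share was 57.9% to 62.0% with Klotho and 65.0% to 67.3% in controls. The lowest level that counted as well above background was -5.82 to -5.14 on the neuron Klotho arrays and -6.68 to -6.06 on the neuron control arrays. Counts of neuron arrays or genes above background are therefore not equally sensitive in the 2 groups. The files held 2 conflicting assignments of the astrocyte arrays. The scanner files place the Klotho astrocytes on slide 3 and the control astrocytes on slide 2. In the deposited value table, 6 of 8 astrocyte columns equal the array of another sample, 4 of them of the other treatment, so that Klotho fills array column 4 and control fills array column 3 on both slides. In the first assignment treatment and slide are one, in the second treatment and column are one, and neither pair can be told apart. All neuron arrays lay on slide 1, with Klotho in row 2 and control in row 1, so treatment and row cannot be told apart there. Cell type and slide cannot be told apart either.

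All 10 members were higher in astrocytes than in neurons, on every array of one against every array of the other. Gfap, the filament protein that defines astrocytes in histology, had astrocyte levels from 5.37 to 6.67 with a median of 6.15, against neuron levels from -1.39 to 1.12 with a median of 0.73. Vim, the vimentin subunit found in many immature and mesenchymal cells, ranged from 7.80 to 8.67 in astrocytes, with a median of 8.09, against 4.95 to 5.67 in neurons, with a median of 5.31. The gap of Vim was the smallest of the 10, at 2.83 ± 0.14 on the log2 scale (SE, limma), and its probe was well above background on all neuron arrays. Gfap differed by 5.79 ± 0.39, and its other 2 probes gave 5.85 and 5.80.

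The secreted members had the same direction. Lcn2, which binds bacterial iron carriers, ranged from 0.92 to 7.20 in astrocytes (median 4.60) and from -3.12 to -2.63 in neurons (median -2.93). Serpina3n, an inhibitor of serine proteases, ranged from 0.45 to 3.57 in astrocytes (median 1.76) and from -4.28 to -3.77 in neurons (median -4.14). Cp, the copper-carrying ferroxidase ceruloplasmin, ranged from 3.23 to 5.34 in astrocytes (median 4.37) and from -3.67 to -2.32 in neurons (median -3.25). For all 3 genes the lowest astrocyte array stood more than the whole neuron range above the highest neuron array. Ptx3, a soluble pattern-recognition protein of the pentraxin family, ranged from -1.09 to 7.20 in astrocytes (median 1.86) and from -3.62 to -1.70 in neurons (median -1.95). Timp1, an inhibitor of matrix metalloproteinases, ranged from -0.41 to 5.34 in astrocytes (median 2.55) and from -5.81 to -3.52 in neurons (median -4.02). The astrocyte range of Ptx3 covered 8.29 log2 units, the widest of the 10 members.

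Among the membrane proteins, Cd109, a surface protein of the alpha-macroglobulin family, differed by 7.97 ± 0.40 on the log2 scale. Its astrocyte levels covered only 3.41 to 3.80, against -6.65 to -3.40 in neurons, where the array at -6.65 was not well above background. S1pr3, a receptor for sphingosine-1-phosphate, ranged from 4.26 to 5.86 in astrocytes and from -1.35 to -0.13 in neurons. Steap4, a metalloreductase that reduces iron and copper, ranged from -2.53 to 2.58 in astrocytes and was not well above background on any of the 8 neuron arrays. Steap4 was therefore at least 41.1-fold higher in astrocytes, where the neuron side is the lowest signal well above background on each array or the probe's own signal, whichever is higher.

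The limma fit called 10 of 10 members higher, with adjusted p from 3.42e-12 to 3.51e-05, against 28.5% of the 30696 genes and unnamed probes tested. Groups without overlap in this direction made up 17.8% of all tested. The median change of the members was 6.33 on the log2 scale and that of all tested was -0.21. Of related lists, 8 of 8 other pan-reactive genes were called higher, including Tgm2 (8.45 ± 0.42, log2), Cebpd and Osmr, a receptor subunit for oncostatin M. In the A1 list 10 of 12 were called higher, with complement C3 at 8.95 ± 0.17, and in the A2 list 7 of 9. Of the NF-kappaB feedback genes, 6 of 6 were called higher.

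Marker genes of several cell types were read on the same arrays. Astrocyte markers were well above background for 10 of 10 genes on every astrocyte array and for 9 to 10 on the neuron arrays. Their mean level was 2.97 to 3.82 in astrocytes and 1.25 to 1.94 in neurons. Of the 10 genes 8 were called higher in astrocytes and 1 lower, with a median change of 1.74 (log2). The 12 microglia markers were all well above background on the astrocyte arrays, with a mean level of 2.49 to 3.34, against 7 to 12 of them and a mean level of -3.22 to -1.31 on the neuron arrays. Fibroblast markers averaged 0.53 to 2.02 in astrocytes and -1.43 to -0.40 in neurons, but of the 8 genes 5 were called higher in astrocytes and 2 lower. Neuron markers averaged -2.29 to -1.91 in astrocytes and 3.92 to 4.52 in neurons. The part that microglia or fibroblasts have in the members' levels was not tested, and in bulk RNA fewer cells of a type cannot be told apart from less RNA per cell.

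**Figure D1:**
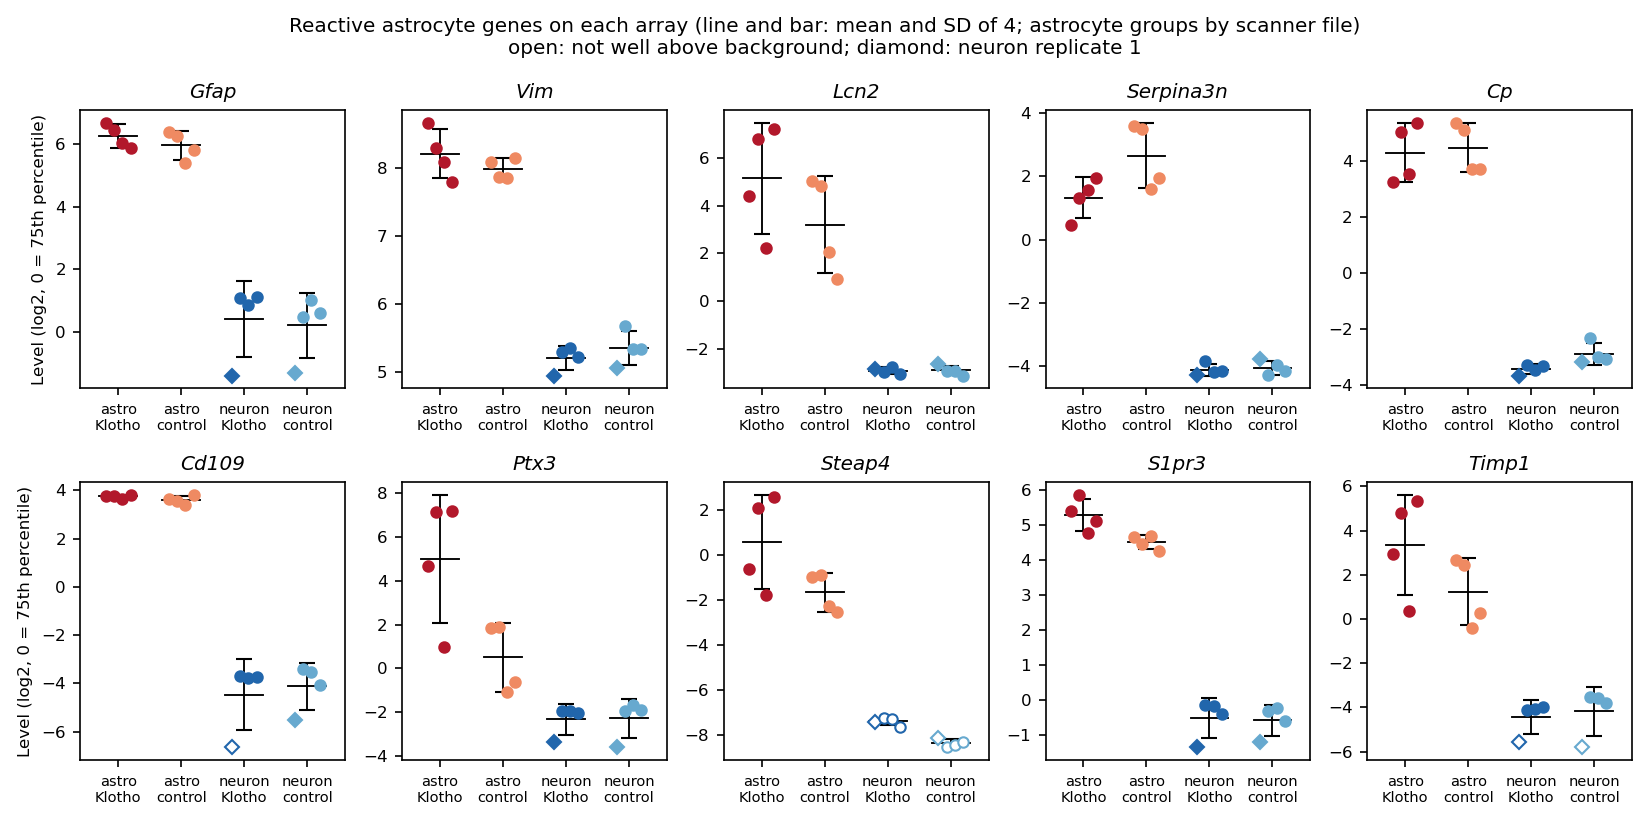
Level of each of the 10 genes (vertical axis, log2 with 0 at the array's 75th percentile, own scale per gene) on every array, by group, with the mean and SD of 4 arrays. Every astrocyte point lies above every neuron point. Ptx3, Lcn2, Timp1 and Steap4 spread widely among astrocyte arrays, and open symbols mark arrays where the probe was not well above background.

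In neurons, Klotho was accompanied by no called change in these genes. Of 10 members, 8 passed the filter, under which a gene needs signal well above background throughout 1 of the compared groups, and 0 of those 8 were called in either direction by limma. Over all 28847 tested, 0.125% were called, all of them lower, and 4.12% had an unadjusted p under 0.05, as 1 of the 8 members did. Timp1 was well above background on 3 of 4 arrays of each group and Steap4 on none, so neither was tested.

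The filament genes showed no order by treatment in neurons. Gfap read -1.39, 1.07, 0.85 and 1.12 on neuron Klotho arrays 1 to 4, against -1.30, 0.49, 1.04 and 0.62 on neuron control arrays 1 to 4. In both groups replicate 1 stood far below the other 3 arrays, whose values overlapped between the groups. The Gfap difference was 0.21 ± 0.67 (log2, SE). Vim read 4.95, 5.29, 5.36 and 5.21 with Klotho and 5.05, 5.67, 5.34 and 5.34 in controls, a difference of -0.15 ± 0.16.

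Cp was the one tested member whose neuron groups did not overlap. It read -3.67, -3.30, -3.45 and -3.33 with Klotho, against -3.20, -2.32, -3.01 and -3.07 in controls. All 4 Klotho values lay below all 4 control values, as they did for 2.71% of all genes tested. The change was -0.54 ± 0.20 (log2), with an unadjusted p of 0.0237 and an adjusted p of 0.998. The second Cp probe was well above background on 3 of 4 control arrays and 0 of 4 Klotho arrays. The level needed to count as above background was higher on the Klotho arrays, which bears on such counts of arrays and genes. Cp is made in large amounts by hepatocytes. On the same arrays 15 of 16 tested adult liver genes had negative differences, 7 of them called lower, with a median of -2.55. Their summed signal, relative to the array's 75th percentile, was 6.09 to 7.21 with Klotho and 11.4 to 19.9 in controls, with 9 to 10 and 17 to 18 of 19 genes well above background. The part of those transcripts in the Cp difference was not tested.

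Partner genes of the members in neurons gave few calls. Among 15 genes of iron and copper handling, Hamp, the hormone hepcidin of hepatocytes, was the only one called. It was well above background on 0 of 4 Klotho arrays and 4 of 4 control arrays, which gave at least 1.83-fold lower (adjusted p = 0.0117). Hamp thus passed the filter only through the control group, and the level needed to count as above background was higher on the Klotho arrays. The part of that higher level in the Hamp call was not tested. Trf, the iron carrier transferrin, changed by -1.22 ± 0.26 with an adjusted p of 0.44. Both are products of the liver, and Trf belongs to the liver list. In the A1 list C3 changed by -1.09 ± 0.23 (adjusted p = 0.391), and 0 of the 11 tested were called. No gene was called among the other pan-reactive (8 tested), A2 (7), IL-6 and STAT3 (12) or NF-kappaB (6) genes.

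Replicate 1 carried the lowest neuron levels of many members in both treatments. For 6 of 10 members, namely Gfap, Vim, Cd109, Ptx3, S1pr3 and Timp1, the 2 replicate 1 arrays were the 2 lowest of 8. The same held for 5 of the 8 members tested, against 25.9% of all genes tested in neurons. This pattern was picked after the values were seen and has no test. Relative to the mean of the other 3 arrays, Gfap in replicate 1 was at -2.40 with Klotho and -2.02 in controls on the log2 scale. Cd109 was at -2.92 with Klotho and -1.86 in controls. Lcn2, Serpina3n, Cp and Steap4 did not have this order over the 8 arrays. Within each group, however, replicate 1 was the lowest array for Cp, at -3.67 with Klotho and -3.20 in controls.

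The mean level of microglia markers on the replicate 1 arrays was -3.22 with Klotho and -2.79 in the control, against -1.79 to -1.31 and -2.11 to -1.53 on the other arrays of those groups. The mean of astrocyte markers was 1.25 on the Klotho array and 1.55 on the control array of replicate 1, against 1.54 to 1.65 and 1.71 to 1.94. The summed signal of the microglia markers did not follow their mean level: it was 43.8 on the Klotho and 39.8 on the control array of replicate 1, against 41.4 to 44.8 and 34.9 to 37.6. That sum mostly follows 1 gene, Itgam, at a mean of 5.28 in replicate 1 and 5.13 in the others. Cd68, the next highest marker, was at 0.67 and 0.69. Of the 12 microglia markers, 6 had the replicate 1 arrays as their 2 lowest and 0 as their 2 highest. Of 10 neuron markers, 8 had the replicate 1 arrays as their 2 highest and 1 as its 2 lowest. The replicate 1 arrays were the 2 lowest for 4 of 10 astrocyte, 4 of 10 oligodendrocyte lineage and 4 of 8 fibroblast markers. They were the 2 highest for 0, 2 and 0 of these. Of all genes tested in neurons, 25.9% had them as the 2 lowest, and no share over all genes is given for the 2 highest. Without both replicate 1 arrays 0 members were called. The part of glial content in the replicate 1 levels was not tested.

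**Figure D2:**
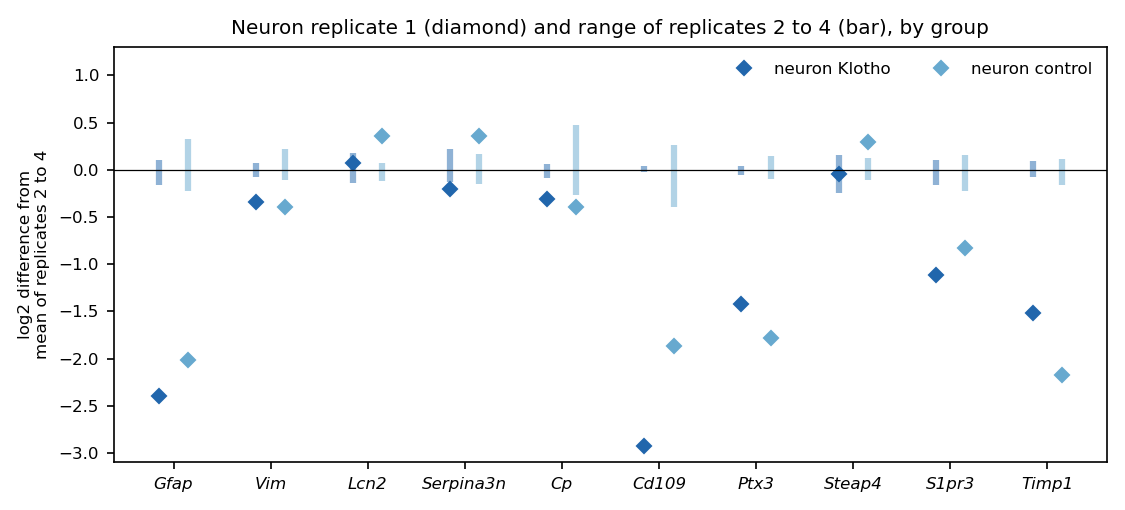
Log2 difference of neuron replicate 1 (diamonds) from the mean of replicates 2 to 4 of its group (vertical axis), for each gene (horizontal axis), with bars for the range of those 3 arrays. Gfap, Cd109, Ptx3, S1pr3 and Timp1 lie far below the bars in both groups, while Lcn2 and Serpina3n do not.

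In astrocytes, no member and no other gene was called with Klotho under the scanner file assignment. The limma fit called 0% of 27145 tested, 3.56% had an unadjusted p under 0.05, as 4 of 10 members did, and the adjusted p was 0.9999 for every member. Even so, the largest fitted differences of the members were large. Ptx3 read 4.69, 7.16, 0.96 and 7.20 on Klotho arrays 1 to 4, against 1.84, 1.88, -1.09 and -0.65 on control arrays 1 to 4. Replicate 3 of Klotho lay within the control range and the other 3 above it. The difference was 4.51 ± 1.39 (log2, SE), with an unadjusted p of 0.0105.

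Lcn2 read 4.39, 6.78, 2.20 and 7.20 with Klotho, against 5.02, 4.81, 2.04 and 0.92 in controls, a difference of 1.94 ± 1.29. Steap4 read -0.61, 2.08, -1.76 and 2.58 with Klotho, against -0.98, -0.88, -2.27 and -2.53 in controls, a difference of 2.24 ± 0.95. Timp1 read 2.96, 4.81, 0.35 and 5.34 with Klotho, against 2.66, 2.45, -0.41 and 0.29 in controls, a difference of 2.12 ± 1.14. In all 3 genes Klotho replicates 2 and 4 stood far above every control array, and Klotho replicate 3 lay within the control range. Klotho replicate 1 lay within that range for Lcn2 and just above it for Steap4 and Timp1.

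S1pr3 was the member whose groups did not overlap. It read 5.40, 5.86, 4.76 and 5.12 with Klotho, against 4.66, 4.47, 4.69 and 4.26 in controls, and its difference was 0.76 ± 0.27. Groups without overlap made up 2.51% of all genes tested. The S1pr3 gap between the lowest Klotho and the highest control array was small beside the spread within either group. In the same list of sphingosine-1-phosphate receptors and kinases 4 of 5 tested genes had positive differences, 0 were called, and S1pr1 changed by 1.18 ± 0.39.

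Serpina3n ran the other way. It read 0.45, 1.32, 1.56 and 1.96 with Klotho, against 3.57, 3.49, 1.59 and 1.93 in controls, and the difference was -1.32 ± 0.53. In array row 1 (replicates 1 and 2) the means were 0.89 with Klotho and 3.53 in controls, while in row 2 (replicates 3 and 4) they were 1.76 in both groups. Gfap (0.29 ± 0.30), Vim (0.22 ± 0.24), Cd109 (0.15 ± 0.19) and Cp (-0.18 ± 0.60) each had a difference smaller than its SE.

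The value table assignment moved several of these values. Klotho is then column 4 and control is column 3. The fit called 0% of 27221 tested and 0 of 10 members. An unadjusted p under 0.05 was reached by 0 members and by 2.29% of all tested, and 0 members had groups that did not overlap, against 1.57% of all tested. Ptx3 read 7.16 and 7.20 on the Klotho arrays of slide 3 and 1.88 and -0.65 on those of slide 2, against 4.69 and 0.96 on the control arrays of slide 3 and 1.84 and -1.09 on those of slide 2. Its difference was 2.30 ± 1.91 over both slides, 4.36 within slide 3 and 0.24 within slide 2. Lcn2 differed by 1.52 ± 1.35 over both, by 3.69 within slide 3 and by -0.66 within slide 2. Steap4 differed by 3.52 within slide 3 and by -0.08 within slide 2, and Timp1 by 3.42 and 0.25. For each of these 4 genes the treatment difference of this assignment lay on slide 3, and the difference between slides was not tested within it. Without 1 array at a time these differences ran from 1.20 to 3.81 for Ptx3, 0.76 to 2.85 for Lcn2, 0.96 to 2.67 for Steap4 and 1.13 to 2.81 for Timp1. Each was smallest without the slide 3 array of row 2 and column 4, and largest without the slide 2 array of that row and column. By scanner file the same differences ran from 3.77 to 5.85, 1.18 to 2.92, 1.57 to 3.02 and 1.46 to 3.13, each largest without Klotho replicate 3. The lowest of these came without control replicate 4 for Lcn2 and without Klotho replicate 4 for the other 3 genes.

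S1pr3 differed by 0.05 ± 0.37 under this assignment, and Serpina3n by 0.38 ± 0.68. Cp differed by 0.84 ± 0.53, with 1.81 within slide 3 and -0.12 within slide 2, and its second probe gave 0.90 ± 0.45. With array row as a block the fit called 0 genes in either assignment, and with slide as a block, which only the value table assignment allows, it also called 0.

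Of the 8 astrocyte arrays, 4 have the same treatment in both assignments. They are the 2 Klotho arrays in column 4 of slide 3 and the 2 control arrays in column 3 of slide 2. Over these, Ptx3 averaged 7.18 with Klotho and 0.38 in controls, a difference of 6.80 ± 1.01 with an adjusted p of 0.236. Steap4 averaged 2.33 with Klotho and -1.63 in controls (3.96 ± 0.59, adjusted p = 0.237), and Timp1 averaged 5.08 with Klotho and 1.12 in controls (3.96 ± 1.06, adjusted p = 0.659). Lcn2 averaged 6.99 with Klotho and 3.53 in controls (3.46 ± 1.03, adjusted p = 0.776). Both Klotho arrays lay above both control arrays for 6 of 10 members, namely Lcn2, Cd109, Ptx3, Steap4, S1pr3 and Timp1, against 11.8% of the 29189 tested. For 0 members both lay below, against 17.6% of all tested. The limma fit called 2 genes, 0.00685% of all tested, and both code for cytokines: Csf2 and Ifnb1. With 2 arrays a group, treatment, slide and column cannot be told apart.

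**Figure D3:**
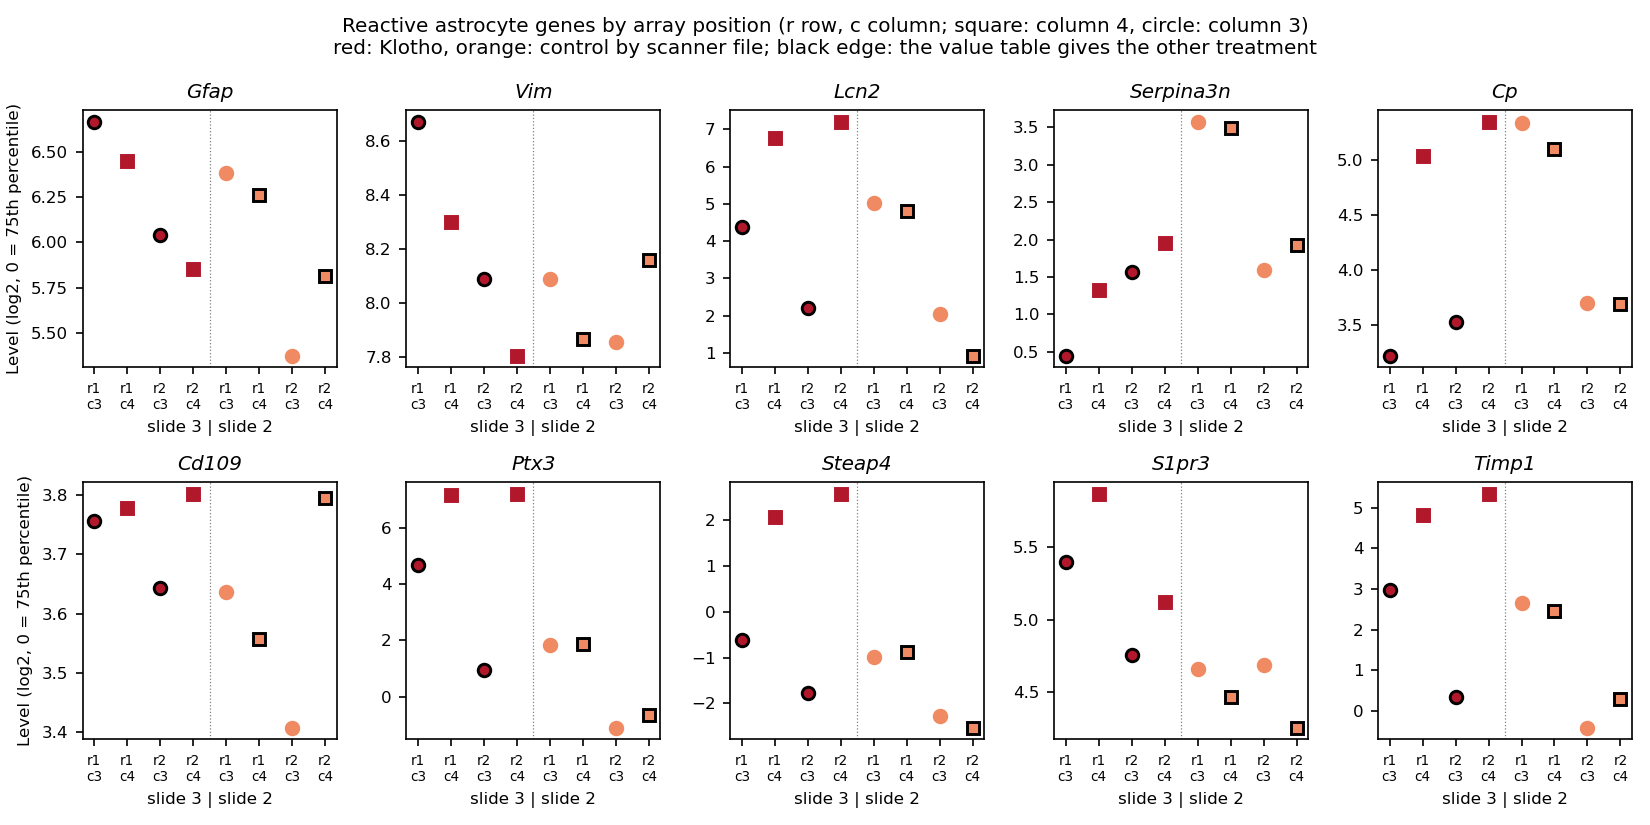
Level of each of the 10 genes (vertical axis, log2, own scale per gene) on the 8 astrocyte arrays, ordered by slide, row (r) and column (c). Red marks Klotho and orange control by scanner file, squares mark column 4, and a black edge marks arrays for which the value table gives the other treatment. Lcn2, Ptx3, Steap4 and Timp1 peak on both slide 3 arrays of column 4.

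Lcn2, Ptx3, Steap4 and Timp1 had the 2 slide 3 arrays of column 4 as their 2 highest of 8. This order was seen for 4 of 10 members and for 5.67% of all genes tested, and it was read off after the values were seen, so it has no test. The 4 genes differ in their 5′ flanking sequence. The 250 bases before each start site are given for comparison, as RefSeq places them on GRCm38.p6, and they run 5′ to 3′ on the gene's strand. Lcn2 lies at chr2:32387740-32387989 on the minus strand. Ptx3 lies at chr3:66219637-66219886, Steap4 at chr5:7960222-7960471 and Timp1 at chrX:20869916-20870165, all on the plus strand. Capitals mark matches to 4 motifs searched on both strands.
Lcn2: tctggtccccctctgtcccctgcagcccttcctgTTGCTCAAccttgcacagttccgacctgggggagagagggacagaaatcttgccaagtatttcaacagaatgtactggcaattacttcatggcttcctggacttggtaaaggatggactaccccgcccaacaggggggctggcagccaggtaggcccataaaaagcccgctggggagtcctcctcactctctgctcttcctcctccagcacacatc
Ptx3: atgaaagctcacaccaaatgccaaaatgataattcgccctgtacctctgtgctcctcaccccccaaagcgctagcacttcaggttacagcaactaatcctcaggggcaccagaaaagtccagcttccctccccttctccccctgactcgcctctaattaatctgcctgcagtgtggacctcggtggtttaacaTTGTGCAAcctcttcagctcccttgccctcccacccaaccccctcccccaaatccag
Steap4: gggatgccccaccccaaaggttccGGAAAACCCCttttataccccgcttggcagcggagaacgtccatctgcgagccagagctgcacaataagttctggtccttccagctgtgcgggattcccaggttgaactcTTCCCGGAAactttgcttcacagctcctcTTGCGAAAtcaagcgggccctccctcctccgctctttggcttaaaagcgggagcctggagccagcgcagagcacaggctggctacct
Timp1: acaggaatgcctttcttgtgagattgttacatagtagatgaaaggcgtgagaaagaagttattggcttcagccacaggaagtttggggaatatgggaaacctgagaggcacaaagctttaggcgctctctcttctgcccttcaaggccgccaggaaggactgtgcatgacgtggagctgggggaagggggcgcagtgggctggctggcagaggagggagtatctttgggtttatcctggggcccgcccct

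The motifs were GGG and TTTCC with any 2 bases between them for NF-kappaB, TTCNNNGAA for STAT, TTGCNNAA for C/EBP and TGANTCA for AP-1, with N as any base. The search covered 300 bases, which include 50 after the start. No 2 matches overlapped in the windows shown. Of 32851 mouse promoter windows of that length, 1.63% held the NF-kappaB letters, 8.30% the STAT letters, 10.8% the C/EBP letters and 7.81% the AP-1 letters. The capitals in Lcn2 (position -216 from the start) and in Ptx3 (position -57) are C/EBP matches. Steap4 held the NF-kappaB letters at -226, the STAT letters at -116 and the C/EBP letters at -87, and Timp1 held none of the 4 in this window. Among the 9 members matched to a RefSeq promoter, all but Cd109, 3 held the NF-kappaB letters (Vim, Steap4 and Serpina3n), 2 the STAT letters (Steap4 and Gfap), 4 the C/EBP letters (Lcn2, Cp, Ptx3 and Steap4) and 1 the AP-1 letters (Cp). The C/EBP letters were thus held by Lcn2, Ptx3 and Steap4, not by Timp1, and also by Cp. The NF-kappaB or STAT letters were held by Steap4 and also by Gfap, Vim and Serpina3n. Cp, Gfap, Vim and Serpina3n did not have the slide 3 arrays of column 4 as their 2 highest. The part of any match in the levels was not tested.

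Il6, Tnf, Il1b and Tnfaip3 are given here because of their values on those 2 arrays. Il6, the cytokine that signals through STAT3, read 5.40 and 5.60 there, 2.75 and -2.17 on the slide 3 arrays of column 3, and -6.34 to -4.28 on the 4 slide 2 arrays, 3 of which were well above background. Tnf read 4.62 and 3.43, against 2.04 and -1.96 on the other slide 3 arrays and -2.76 to -1.16 on slide 2. Il1b read 3.61 and 2.21, against 0.67 and -3.85 on the other slide 3 arrays and -6.25 to -2.61 on slide 2. Tnfaip3, a feedback inhibitor of NF-kappaB, read 6.23 and 5.42, against 3.71 and 0.41 on the other slide 3 arrays and -0.30 to 0.88 on slide 2. By scanner file Il6 differed by 7.87 ± 1.55, Tnf by 3.90 ± 1.23, Il1b by 4.51 ± 1.51 and Tnfaip3 by 3.62 ± 1.11 between Klotho and control, with an adjusted p of 0.9999 for each. By value table Il6 differed by 2.93 ± 2.91. The list of inducing cytokines and their receptors, which holds Tnf and Il1b, had a median, relative to each gene's own mean, of 0.17 and -0.0058 on the 2 arrays, and by scanner file 5 of 9 tested genes had positive differences with a median of 0.08 and 0 called.

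The lists differed among themselves on these arrays. Relative to each gene's own mean over the 8 arrays, the median of the 10 members was 0.81 and 0.60 on the slide 3 arrays of column 4, 0.36 and -0.63 on those of column 3, and -0.70 to 0.13 on slide 2. The 6 NF-kappaB feedback genes had medians of 2.28 and 1.12 on the slide 3 arrays of column 4, and the 10 A2 genes 1.01 and 0.60. Intermediate filament partners had medians of -0.24 and 0.08 there, and 14 iron and copper handling genes 0.02 and -0.07. By scanner file 6 of 6 NF-kappaB genes (median 1.34), 9 of 9 A2 genes (median 0.54) and 11 of 13 IL-6 and STAT3 genes (median 0.32) had positive differences, with 0 called. Positive differences were also counted for 4 of 8 other pan-reactive genes (median 0.15), 8 of 12 A1 genes (0.42), 11 of 14 iron and copper genes (0.16), 5 of 7 Timp family and protease genes (0.48), 4 of 5 sphingosine-1-phosphate genes (0.52) and 2 of 6 filament partners (median -0.10), with 0 called in each. Over all tested the median change was -0.01, and 48.5% had positive differences. The members had 8 of 10 positive and a median of 0.53. Ptgs2 (4.60 ± 1.43) in the A2 list, Cxcl10 (3.34 ± 0.96) in the pan-reactive list and Amigo2 (1.48 ± 0.35) in the A1 list had the smallest p of their lists.

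Microglia markers were not higher on those 2 arrays than on the rest. They had a mean level of 2.49 and 3.08 on the slide 3 arrays of column 4 and 2.84 to 3.34 on the other 6, with 12 of 12 genes well above background on each. Their summed signal, relative to the array's 75th percentile, was 131 and 197 on the 2 arrays and 150 to 268 on the others. Fibroblast markers had a mean level of 1.75 and 1.58 on the 2 arrays, 2.02 and 0.91 on the other slide 3 arrays and 0.53 to 1.03 on slide 2. Oligodendrocyte lineage markers had a mean level of -1.20 and -0.79 on the 2 arrays and -0.49 to 0.33 on the other 6. Their summed signal did not follow this order, at 78.9 and 83.1 on the 2 arrays and 31.3 to 126 on the other 6. By scanner file 8 of these 10 markers had negative differences (median -0.35), 2 of them with groups that did not overlap, and 0 were called. The part of fibroblasts, microglia or oligodendrocyte lineage cells in the levels of the 4 genes was not tested.

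**Figure D4:**
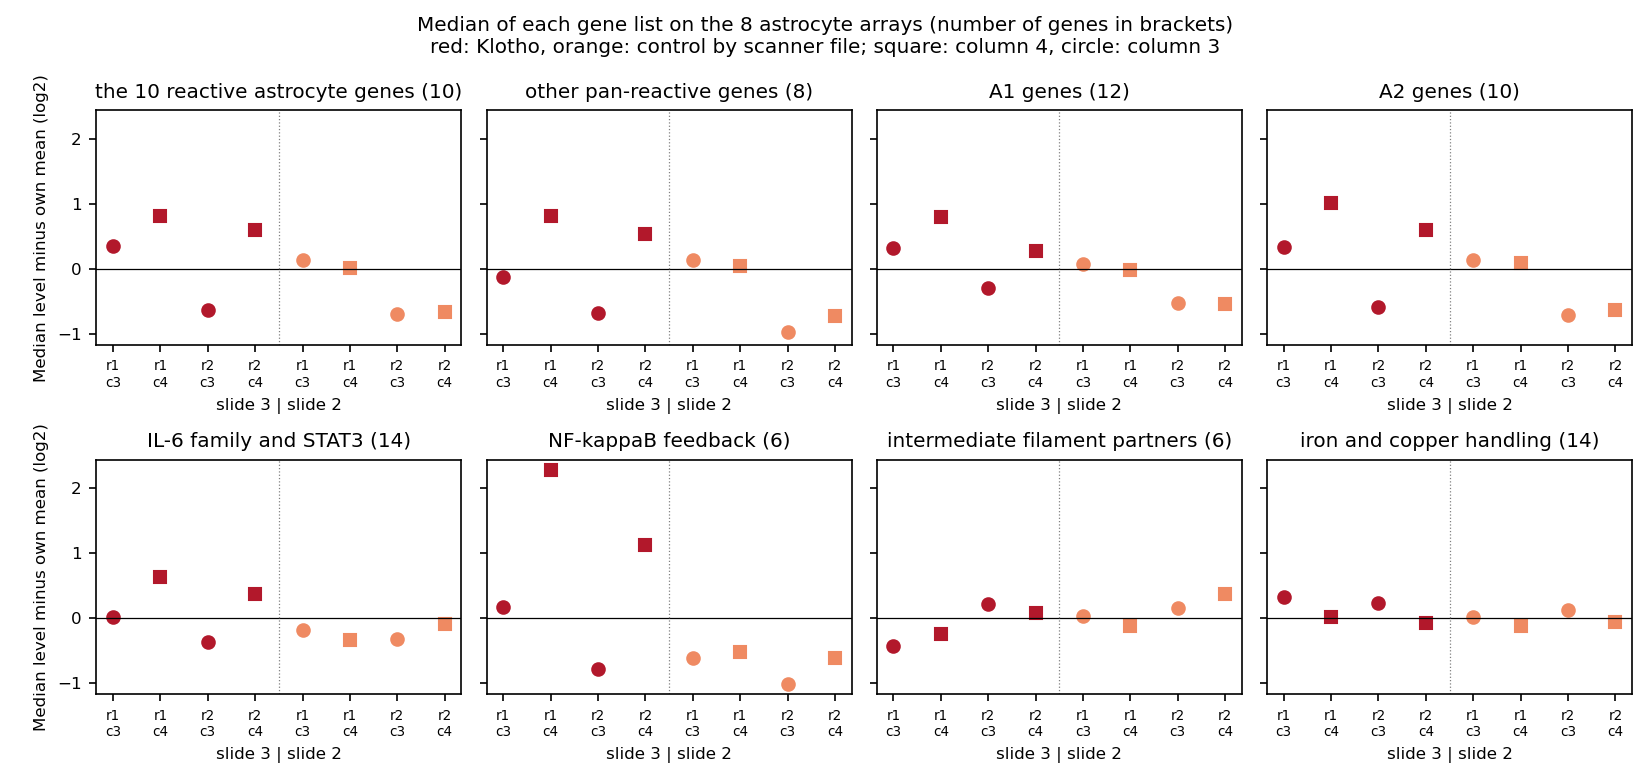
Median over each gene list of the level minus the gene's own mean over the 8 astrocyte arrays (vertical axis, log2), by slide, row (r) and column (c), with the number of genes in brackets. The NF-kappaB feedback genes reach 2.28 and 1.12 on the slide 3 arrays of column 4, where the 10 reactive genes reach 0.81 and 0.60. Filament partners and iron and copper handling genes stay near 0 on those arrays.

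Other genes whose levels followed each member over the 8 astrocyte arrays were named by the smallest root mean square difference after centring, among 14688 named genes well above background on all 8. For Ptx3 they were the protease gene Mmp3 (0.46), Gbp4 (0.55) and the chemokine gene Ccl2 (0.65), where the median over all genes was 3.06. For Timp1 they were Ifi205 (0.30), Ier3 (0.30) and Rspo3 (0.37), and for Steap4 Rspo3 (0.31), Slco2a1 (0.40) and Dapk2 (0.44). For Lcn2 they were Ifi205 (0.56), AA467197 (0.60) and Ubd (0.64). Medians over all genes were 2.00 for Timp1, 1.83 for Steap4 and 2.13 for Lcn2. Mmp3 read 3.67 and 4.88 on the slide 3 arrays of column 4 and -3.78 to 1.80 on the other 6. Cp and Serpina3n had other neighbours. Those of Cp were Ahr (0.23), Ampd3 (0.34) and Trabd2b (0.36), and those of Serpina3n were Krtap11-1 (0.11), Clec4n (0.28) and Cxcr3 (0.33). The points of a gene share their arrays and slides, and the values describe likeness only.

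Array row went with the levels of a large share of all genes in astrocytes. Row 2 against row 1 gave calls for 46.9% of 27966 tested, 22.3% lower and 24.6% higher, and each row holds 2 arrays of each treatment in both assignments. What the rows stand for is not given in the labels. Over both slides all 10 members had negative differences, where 52.0% of all tested had positive ones. Cd109 turned positive under quantile scaling (0.44) and normexp (0.02) and S1pr3 under quantile scaling (0.20). The slides did not share the sign for every member. Serpina3n differed by 0.87 within slide 3 and -1.77 within slide 2, and Cp by 0.31 and -1.52. Vim (0.029) and Cd109 (0.0044) were positive within slide 2. The members' median was -0.64, where the median of all genes was 0.04, and 1 of 10 was called. Gfap read 6.04 and 5.85 on row 2 of slide 3 and 5.37 and 5.81 on row 2 of slide 2, against 6.67 and 6.45 on row 1 of slide 3 and 6.38 and 6.26 on row 1 of slide 2. Its rows did not overlap, as for 21.5% of all tested in that direction, and the change was -0.67 ± 0.19 (log2), with an adjusted p of 0.0172.

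The 3 Gfap probes differed here. Probe A_52_P52303 and probe A_55_P2157245, which carry the same transcript accession, changed by -0.67 and -0.73 (adjusted p = 0.0170 and 0.0185 over all probes). Probe A_55_P2157250, which carries another Gfap transcript, changed by -0.06 ± 0.18 (adjusted p = 0.806). The Gfap call was lost with quantile scaling (-0.14, adjusted p = 0.461) and without the background filter (adjusted p = 0.0504). With arrays centred on their median, which shifted the median of all genes by -0.44, Gfap, Vim (-0.69) and S1pr3 (-0.83) were called, and calls over all genes were 27.8% higher against 52.4% with the 75th percentile. Without Klotho replicate 4 the fit called 5 members, adding Lcn2 (-3.53), Ptx3 (-4.15), Steap4 (-2.09) and Timp1 (-3.14).

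Related lists by row included called genes in both directions. Of 8 other pan-reactive genes 3 were lower and 1 higher, with the small heat shock protein gene Hspb1 at -1.65 ± 0.41 (adjusted p = 0.0105), Cebpd at -1.17 ± 0.34, Tgm2 at -1.07 ± 0.34 and Aspg at 1.21 ± 0.43. Of 9 A2 genes 3 were lower (S100a10 at -1.81 ± 0.36, Emp1 and Tm4sf1) and 0 higher, and Cntf, a cytokine that signals through STAT3, changed by -1.75 ± 0.30 (adjusted p = 0.00374). Cntf was the one called gene of 13 tested in the IL-6 and STAT3 list, where 5 had positive differences. Of 6 filament partners 2 were higher, Eppk1 at 1.73 ± 0.22 and Plec at 0.82 ± 0.19, and both are cytolinkers that attach to intermediate filaments. Fibroblast markers had 4 of 7 called lower and 1 higher. Astrocyte markers had 8 of 10 negative differences, with 2 called lower and 0 higher. The part of either cell type in these differences was not tested.

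**Figure D5:**
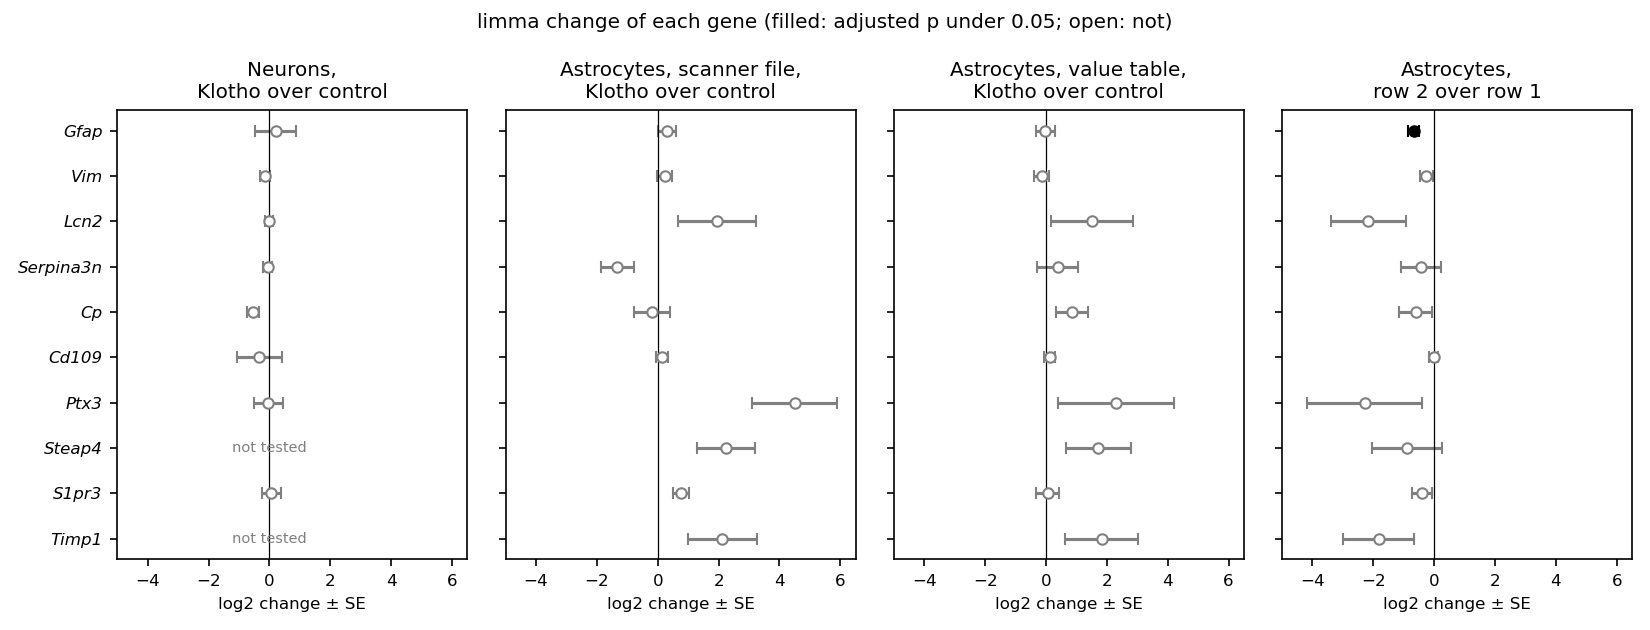
Fitted log2 change with its SE (horizontal axis) of each gene (vertical axis) in 4 comparisons of limma. Filled points have an adjusted p under 0.05 and open points do not. Gfap by array row is the one filled point, and Ptx3 has the largest change with Klotho in astrocytes in both assignments, 4.51 and 2.30.

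The Klotho difference in astrocytes, by scanner file, was also set against that in neurons in 1 fit. The fit called 0 of 10 members and 0.0749% of 30696 tested, and 2 of 10 members and 4.87% of all tested had an unadjusted p under 0.05. Ptx3 had the largest difference of the members, 4.54 ± 1.58 on the log2 scale, with an unadjusted p of 0.0115 and an adjusted p of 0.874. Its Klotho difference by scanner file was positive in 4 of 4 same-numbered astrocyte pairs, as it was for Gfap, Cd109, Steap4, S1pr3 and Timp1. In neurons the positive pairs were 2 of 4 for Ptx3 and Gfap, and 1 of 4 for Cd109 and Timp1. They were 3 of 4 for S1pr3 and 4 of 4 for Steap4, which was not well above background there. No share over all genes is given for these pair counts. Serpina3n differed by -1.27 ± 0.58 (adjusted p = 0.999). Without astrocyte Klotho replicate 3 the Ptx3 difference was 5.89 with an adjusted p of 0.0314 (limma). This was 1 of 16 fits that each left out 1 array, over which the difference ran from 3.81 to 5.89. The array left out was the one Klotho array within the control range, so this value is no separate test. Under the value table assignment the Ptx3 difference in astrocytes alone was 2.30 ± 1.91.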

How the data were processed

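RNA of 16 samples (8 of astrocytes, 8 of neurons) was measured on 1-colour Agilent mouse arrays of design 028005, from 200 ng of RNA each. Per the file headers, the authors scanned each array and deposited background-subtracted spot intensity values made with Feature Extraction 12.0.3.1, on gene models of mm9. The deposited value table holds a score per probe, which behaves like a z-score within each array, with the authors' steps not given in the sources used here. Its columns were matched to the arrays by value, within 0.00502 for the best match against at least 1.67 for the next.

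From each array, 3671 control spots were dropped, spots of a probe were averaged, and log2 signal was centred on the array's 75th percentile. Symbols came from RefSeq accessions for 28331 of 55681 probes, and the brightest probe stood for each symbol. Genes and unnamed probes were tested with limma 3.58.1 (R 4.3.3) and Benjamini-Hochberg adjustment at 0.05, among those well above background on all arrays of a compared group. Further work used Python 3.11.15 with pandas 2.3.3 and numpy 2.4.6, and plots were drawn with matplotlib 3.10.9. The fit was tested on simulated data.

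The members, the lists of related genes and the tests were chosen with earlier results of these data known. Genes outside the members were named by the 3 smallest p-values per list and by the 3 nearest patterns per member with a span over 2 log2 units, and others after their values were seen. Replicate numbers in the labels were checked as pairs by correlating deviations from the group means. Same-numbered samples gave 0.160 to 0.755 in neurons and 0.155 to 0.730 in astrocytes. The numbers were used as pairs only in an alternative fit and in counts of pair signs. Same-numbered arrays share their array column in neurons, and their row and column in astrocytes by scanner file. Pairing of cultures and array position therefore cannot be told apart. Neuron Klotho array 2 was closer to control array 3 (0.380) than to control array 2 (0.160). Samples with unlike numbers gave -0.645 to 0.412 in neurons and -0.720 to 0.686 in astrocytes. Every column of per-sample values was mapped to a sample. Alternatives covered background correction, scaling, filter, probe choice, value table, assignment, blocks and left-out arrays.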

Additional observations from a re-analysis of the deposited data

Results flagged for a closer look

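Within groups of 4 arrays, 6 of 40 combinations of gene and group had 1 array far from the rest by Dixon's criterion, which chance meets in about 1 of 20 groups. All 6 were neuron replicate 1, the lowest array of its group, so the combinations are not independent of each other. The replicate 1 arrays were also the 2 lowest of 8 for 25.9% of all genes tested in neurons. No share over all genes is given for Dixon's criterion. Gfap was -1.39 on the Klotho array, where the other 3 were 0.85 to 1.12. Cd109 was -6.65 on the Klotho array, not well above background, where the others were -3.76 to -3.69. Ptx3 was -3.40 on the Klotho array, where the others were -2.03 to -1.94, and -3.62 on the control array, where the others were -1.95 to -1.70. Timp1 was -5.57 on the Klotho array, where the others were -4.14 to -3.97, and -5.81 on the control array, where the others were -3.80 to -3.52. Neither Timp1 array of replicate 1 was well above background.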

How the results depend on the processing

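Of the 10 members called higher in astrocytes over neurons, 10 stayed called in each alternative except the filter for signal above background on every array, which tested and called 7. The replicate block changed no member call in any comparison. Genes called in neurons were 36 as reported, 6 with normexp on median signals, 7152 without the background filter (1 member, Steap4, below background on all 8 neuron arrays), 3 with signal above background on every array, 58 in the value table, 22 with the replicate block and 14 without both replicate 1 arrays. In astrocytes by scanner file 2 genes were called on the arrays with the same treatment in both assignments. Members called by row were 3 with median scaling, and 0 with quantile scaling, without the filter and in the value table. Genes called in the test between cell types were 23, and 9 with normexp, 0 above background on every array and 44 in the value table.

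Without 1 array at a time, genes called in neurons ran from 16 to 53, by scanner file from 0 to 15 (15 without Klotho replicate 3, 1 without control replicate 3) and in the test between cell types from 16 to 150. Members called ran from 1 to 5 by row (5 without Klotho replicate 4) and from 0 to 1 between cell types (Ptx3, without astrocyte Klotho replicate 3).

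None of the differences whose sign turned was called as reported. The value table's scores carry the table's own assignment, so for treatment in astrocytes and between cell types scale and assignment change together, also for the 44 genes. In neurons Lcn2 was 0.058 and Serpina3n 0.027 with normexp, Vim 0.0325 in the value table (score units), and Lcn2 0.0685 and Serpina3n 0.0837 without both replicate 1 arrays. By scanner file Gfap was -0.04, Vim -0.0825, Serpina3n 0.0825, Cp 0.18 and S1pr3 -0.02 in those scores, which set column 4 against column 3, and Cp was 0.66 on the arrays with the same treatment in both assignments. By value table Gfap was 0.0027 with normexp, 0.0193 with quantile scaling and 0.0628 as the mean over its probes, Vim was 0.006 with quantile scaling, and S1pr3 was -0.02 in the table's scores. By row, where Vim (-0.69) and S1pr3 (-0.83) were called with median scaling, Cd109 was 0.0211 with normexp and 0.44 with quantile scaling, S1pr3 was 0.20 with quantile scaling, and the scores gave Vim 0.0575 and Cd109 0.0525. Between cell types Gfap was -0.12 with quantile scaling, -0.18 as the mean over probes, -0.0875 in the scores and -0.23 with log2 levels in the value table assignment. There Vim was -0.12 in the scores, Serpina3n 0.15 in the scores and 0.44 in the value table assignment, and S1pr3 -0.025 in the scores and -0.0126 in that assignment.

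Without 1 array at a time, neuron differences ran from -0.30 to 0.81 for Gfap, -0.0748 to 0.0869 for Lcn2, -0.15 to 0.0316 for Serpina3n, -0.80 to 0.40 for Cd109, -0.48 to 0.32 for Ptx3 and -0.14 to 0.34 for S1pr3. Cp ran from -0.53 to 0.17 by scanner file. By value table Gfap ran from -0.27 to 0.16, Vim from -0.25 to 0.0221, Serpina3n from -0.0674 to 0.97 and S1pr3 from -0.26 to 0.28. By row Serpina3n ran from -1.03 to 0.0059 and Cd109 from -0.0668 to 0.0646. Between cell types Gfap ran from -0.51 to 0.59 and Cd109 from -0.25 to 0.94. The causes were not tested.

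Normexp on median signals, slide as a random block with cell type alone, and tests of each probe by itself were chosen after seeing the data. Normexp on mean signals and the slide block with 4 group means were not run. Dim probes limit Steap4, Timp1 and the second Cp probe in neurons.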

Other observations

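Astrocyte control arrays 1 and 2, side by side in row 1 of slide 2, were the closest pair of astrocyte arrays, with a median absolute log2 difference of 0.0985, where all 28 astrocyte pairs ran from 0.0985 to 0.831. The value table gives those 2 arrays different treatments. Klotho arrays 1 and 2 by scanner file, side by side in row 1 of slide 3, differed by 0.456. Klotho array 1 differed from control array 1, in row 1 of the other slide, by 0.314. Which assignment is right was not tested. Neuron pairs ran from 0.0864 to 0.409. On astrocyte control arrays 1 and 2 Ptx3 read 1.84 and 1.88, Serpina3n 3.57 and 3.49 and Cp 5.34 and 5.10.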
